A study of Saccharomyces cerevisiae with 6 samples.

Results

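The genes described here serve to carry ammonium into the yeast cell, to build it into glutamate and glutamine, or to release it from glutamate. Of the 8 genes chosen by name, 3 encode the ammonium permeases (*MEP1*, *MEP2* and *MEP3*), 3 the glutamate dehydrogenases (*GDH1*, *GDH2* and *GDH3*), 1 the glutamine synthetase (*GLN1*) and 1 the glutamate synthase (*GLT1*). All 8 have an H3K4me3 peak in both deposited lists, which hold 4628 genes in WT and 4868 in *jhd2∆*, with 4526 in both. H3K4me3 is trimethylation of histone H3 on lysine-4, and ChIP-Seq reads the DNA pulled down with an antibody against it, so that marked stretches appear as peaks.

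WT and *jhd2∆* cells of the *Saccharomyces cerevisiae* strain background BY4742 were grown in YAR, a synthetic medium with raffinose as carbon source and ammonium as nitrogen source, to an optical density of 0.5. Both strains are prototrophic by the strain list of the study, and the mutant carries *jhd2∆*::Hyg, a deletion of the only known H3K4 demethylase gene of yeast. The samples are labelled Mat a, while the strain list gives MATα for both. There was 1 H3K4me3 library per genotype, beside pan-H3 and whole cell lysate libraries that are not analysed here, so no difference below could be set against the spread between cultures and no p-value is given. In place of a test, each value is set against all genes of the lists. At *JHD2* (YJR119C) itself WT had a 503 bp peak, and the *jhd2∆* list held none. The lists carry no read totals, and the depth behind a single peak is unknown. By western blot the paper reported more bulk H3K4me3 in *jhd2∆* than in WT cells in YAR. Its ChIP-qPCR found more across *MRPL17*, *PMA1* and *YEF3*, which showed no change of breadth. It proposes that breadth may reflect a genome-wide increase that normalization without an added control left visible only at some edges. A narrower peak below therefore does not by itself show less H3K4me3 at a gene in *jhd2∆*.

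Ammonium enters yeast through the Mep permeases, of which Mep2 is known for the highest affinity and for its role in filamentous growth when nitrogen is scarce. The permease genes are known to be repressed when preferred nitrogen sources are plentiful. Inside the cell, Gdh1 and its paralog Gdh3 join ammonium to α-ketoglutarate to make glutamate, and Gln1 adds a further ammonium to make glutamine. Glt1 turns glutamine and α-ketoglutarate back into glutamate, and Gdh2 runs the opposite way, releasing ammonium and α-ketoglutarate from glutamate. α-ketoglutarate is also consumed by Jumonji demethylases such as Jhd2.

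None of the 8 genes lacked a peak in this ammonium medium. Among all 6021 protein-coding genes of the reference gene table, 25.7% had no peak in the WT list, 21.5% had none in the *jhd2∆* list and 20.4% had none in either. Each of the 8 genes had its peaks to itself, with no peak shared with a neighbouring gene. Every gene had 1 peak in each list except *GDH2*, which had 2 in WT and 1 in *jhd2∆*. Each gene had 1 pair of overlapping WT and *jhd2∆* peaks, and the smallest overlap was 74.1% of a peak, at *MEP3* in *jhd2∆*.

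The peaks at the 3 permease genes differed in how their edges lay in the 2 genotypes. *MEP1* (YGR121C, chromosome VII), which encodes a permease of lower affinity than Mep2, had a peak of 840 bp in WT, at 732142 to 732981. In *jhd2∆* it spanned 732141 to 732954 (814 bp). Its downstream edge differed by 1 bp between the libraries, and the upstream edge lay 27 bp further in without Jhd2. All positions are those of the deposited lists, in which no build is named. Upstream is the side of the gene's start, taken from the W or C that ends a systematic name.

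*MEP2* (YNL142W, chromosome XIV) had a peak of 1068 bp in WT, at 357277 to 358344. In *jhd2∆* it spanned 357426 to 358497 (1072 bp). The breadth thus differed by 4 bp, while the whole peak lay further along the gene. Its upstream edge was 149 bp further in and its downstream edge 153 bp further along the gene in *jhd2∆*. Only 0.464% of paired genes, those listed in both genotypes, had an upstream edge drawn in further, and 7.03% had a downstream edge that reached further. An upstream edge more than 100 bp further in was found at 0.863% of oriented genes, and a downstream edge more than 100 bp further along at 15.7%. Both edges moved along the gene by more than 100 bp at 7 of 4521 oriented genes (0.155%), a limit chosen after the values of *MEP2* were seen. The others were *REG2*, *CSH1*, *ACT1*, YLR152C, *APJ1* and *ENV7*.

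*MEP3* (YPR138C, chromosome XVI), the third permease gene, had the largest increase in breadth of the 8. In WT its peak spanned 811949 to 812678 (730 bp). In *jhd2∆* it spanned 811704 to 812648 (945 bp), which is 215 bp more, or 29.5% of the WT breadth. The change lay at the downstream edge, which reached 245 bp further along the gene, while the upstream edge lay 30 bp further in. A larger increase in breadth was found at 3.12% of genes.

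**Figure D1:**
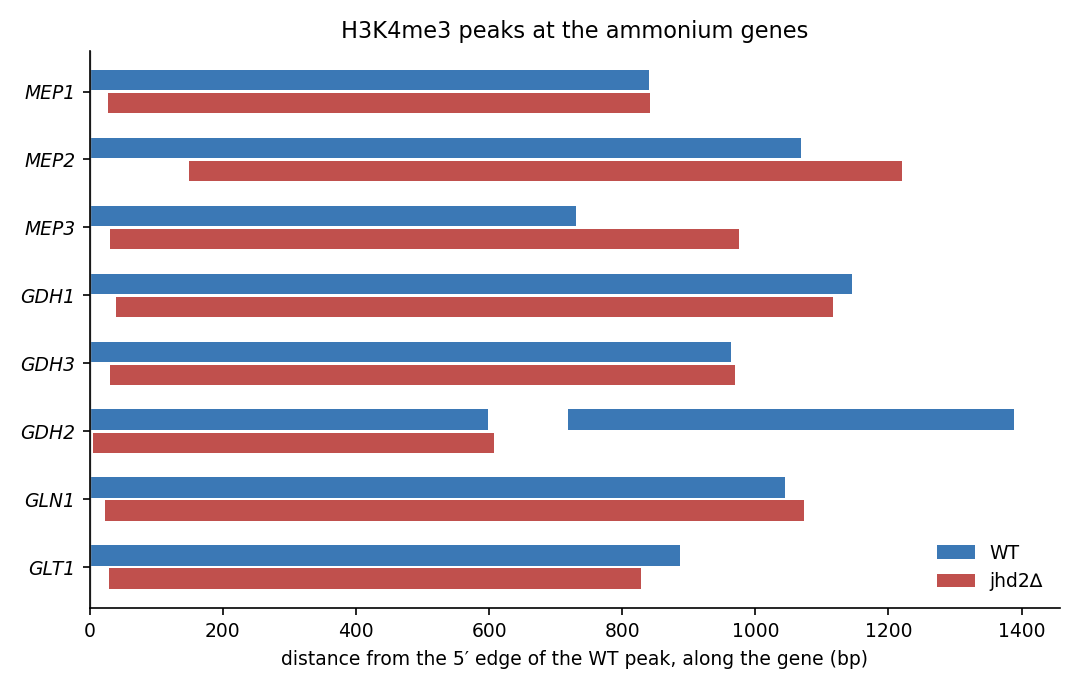
Extent of each listed H3K4me3 peak at the 8 ammonium genes, drawn along the gene from the 5′ edge of its WT peak (x axis, bp), with WT in blue and *jhd2∆* in red. The *MEP2* peak begins 149 bp further along the gene in *jhd2∆*, the *MEP3* peak ends 245 bp further along, and *GDH2* has 2 peaks in WT and 1 in *jhd2∆*.

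The ammonium-fixing dehydrogenase gene *GDH1* had the broadest WT peak of the 8, and it was narrower in *jhd2∆*. At *GDH1* (YOR375C, chromosome XV) WT cells had a peak of 1146 bp, at 1041992 to 1043137. In *jhd2∆* it spanned 1042021 to 1043098 (1078 bp), and the difference was -68 bp. Both edges were drawn in, the upstream one by 39 bp and the downstream one by 29 bp. A lower difference in breadth was found at 3.16% of genes. *GDH3* (YAL062W, chromosome I) encodes the paralogous enzyme, which is known to be made mainly on non-fermentable carbon. It had a WT peak of 963 bp, at 31664 to 32626. In *jhd2∆* the peak lay at 31694 to 32633 (940 bp), and the difference was -23 bp. Here the upstream edge was 30 bp further in and the downstream edge 7 bp further along. *GDH1* and *GDH3* are known to be related in sequence, as are *MEP1*, *MEP2* and *MEP3*. No sequences were compared here, so how alike they are was not measured. Reads were aligned with default Bowtie2 settings, under which a read that fits several copies is placed at 1 of them. Peaks at any stretch that copies share are therefore uncertain. Whether a later step removed these reads is not given in the sources used here.

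*GDH2* (YDL215C, chromosome IV), the glutamate-degrading dehydrogenase gene, was the only one of the 8 to have a listed peak in 1 genotype with no counterpart in the other. In WT a peak at the gene's start ran from 73542 to 74139 (598 bp) with a pileup of 319, and a second peak further along ran from 72752 to 73420 (669 bp) with a pileup of 289. The gap between them was 121 bp. In *jhd2∆* the 1 listed peak ran from 73532 to 74134 (603 bp), which covers 99.2% of the first WT peak and none of the second. At the gene's start the breadth therefore differed by 5 bp, with the upstream edge 5 bp further in and the downstream edge 10 bp further along. Pairing by the widest peak, as was done for all genes, instead sets the second WT peak against the *jhd2∆* peak at the start and gives -66 bp. *GDH2* is 1 of 4 genes with more than 1 peak in the WT list, and all 4 have exactly 1 in the *jhd2∆* list, while 11 genes have more than 1 in *jhd2∆*. Peaks keep the numbers of the authors' call, and in *jhd2∆* the number 634, between the listed peaks of the downstream neighbour *RRI1* and of *GDH2*, is carried by no listed peak. Whether that call lay over the second WT peak cannot be told from the lists.

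The 2 genes of the glutamine cycle differed from each other. *GLN1* (YPR035W, chromosome XVI), for glutamine synthetase, had peaks of nearly equal breadth, 1045 bp in WT (642191 to 643235) and 1050 bp without Jhd2 (642214 to 643263). The upstream edge lay 23 bp further in and the downstream edge 28 bp further along the gene, close to the median downstream shift of 29 bp over all genes. *GLT1* (YDL171C, chromosome IV), for glutamate synthase, had the largest decrease of the 8 genes, from 887 bp in WT (154802 to 155688) to 799 bp in *jhd2∆* (154861 to 155659). The difference was -88 bp, and only 1.81% of genes had a lower one. Its downstream edge was drawn back by 59 bp, further than at all but 1.17% of genes, and its upstream edge lay 29 bp further in. *GLT1* is long, at 6437 bp in the WT list, and 99.5% of the paired genes are shorter.

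In breadth 6 of the 8 genes stood above the 75th percentile of all genes in each list. In WT 6 of the 8 peaks were broader than the 75th percentile of 781 bp, which 24.9% of all listed genes exceeded, and the 8 genes had a median of 925 bp beside 657 bp for all genes. *GDH1* was broader than 97.0% of genes, *MEP2* than 95.5%, *GDH3* than 91.7%, *GLT1* than 86.8% and *MEP1* than 82.7%. *GLN1* lay between *MEP2* and *GDH3*. *MEP3* followed at 67.2%, and *GDH2* was lowest at 52.8% for its wider WT peak and 36.6% for the peak at its start. In *jhd2∆* 6 of 8 again passed the 75th percentile, 811 bp in that list (24.9% of its genes), with a median of 942.5 bp beside 676.5 bp. The 6 differed by 1 gene between the lists. In *jhd2∆* *MEP3*, at 87.9%, was among them and *GLT1*, at 72.9%, was not, while *GDH2* stood at 32.0%.

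**Figure D2:**
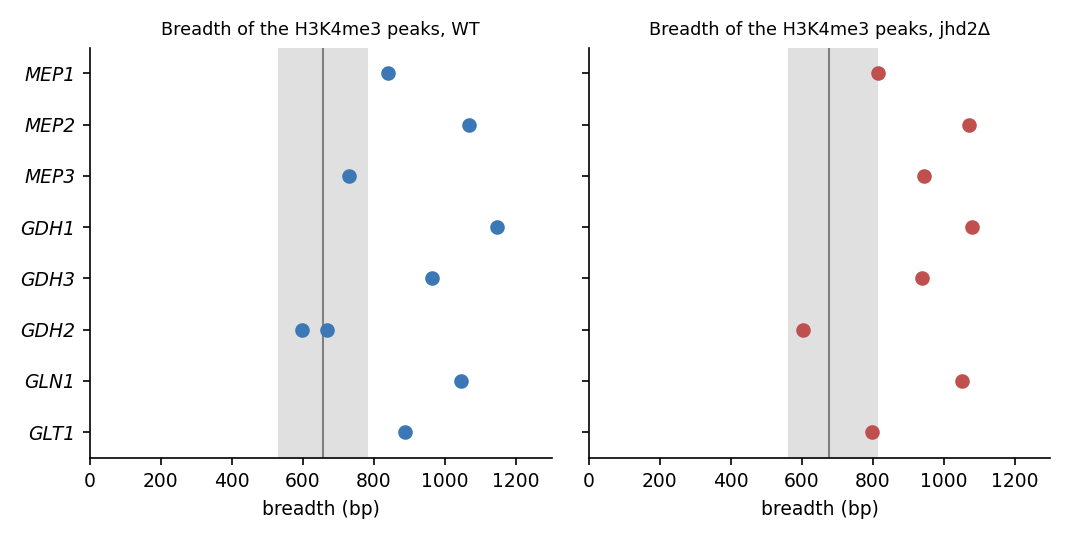
Breadth in bp (x axis) of every listed H3K4me3 peak at the 8 ammonium genes, with WT on the left and *jhd2∆* on the right; grey bands span the quartiles of all genes of the list and the grey line is their median. In both lists 6 of the 8 genes lie above the band, and *GDH2* lies within it.

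Differences in breadth at the 8 genes fell on both sides of 0. With the widest peak of each gene, 3 were wider and 5 narrower in *jhd2∆*, and with the *GDH2* peak at the gene's start, which is also its highest, 4 were wider and 4 narrower. Over all genes 63.2% were wider and 35.9% narrower. The median difference was -24.5 bp over the 8 genes, or -9.5 bp with the *GDH2* peak at the start, beside 17 bp over all genes. The order ran from *GLT1* at -88 bp through *GDH1*, *MEP1* and *GDH3* to *MEP2*, *GDH2* at its start and *GLN1* near 0 and *MEP3* at 215 bp, and with 1 library per genotype it cannot be said which neighbours in this order differ. More than 100 bp of increase was found at 1 of the 8 genes, *MEP3*, against 14.2% of all genes, a share near that of the 8, and none was narrower by more than 100 bp, against 1.30%. For comparison by breadth, of the 905 genes in the highest 20% by WT breadth, 819 to 1643 bp, 36.6% were narrower in *jhd2∆*, with a median difference of 18 bp. The 6 ammonium genes in that class had 4 narrower peaks.

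The edges were also counted over the 8 genes. With the *GDH2* peak at the gene's start, the upstream edge lay further in at all 8 genes, which was also so at 80.6% of all genes, and the median shift was -29.5 bp beside -13 bp over all genes. The downstream edge lay further along the gene at 6 of 8, against 77.4% of all genes, with a median of 8.5 bp beside 29 bp. It was drawn back at the other two, *GDH1* and *GLT1*, and at 21.6% of all genes. At these the upstream edge was drawn in as well, which was found at 17.4% of all genes.

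**Figure D3:**
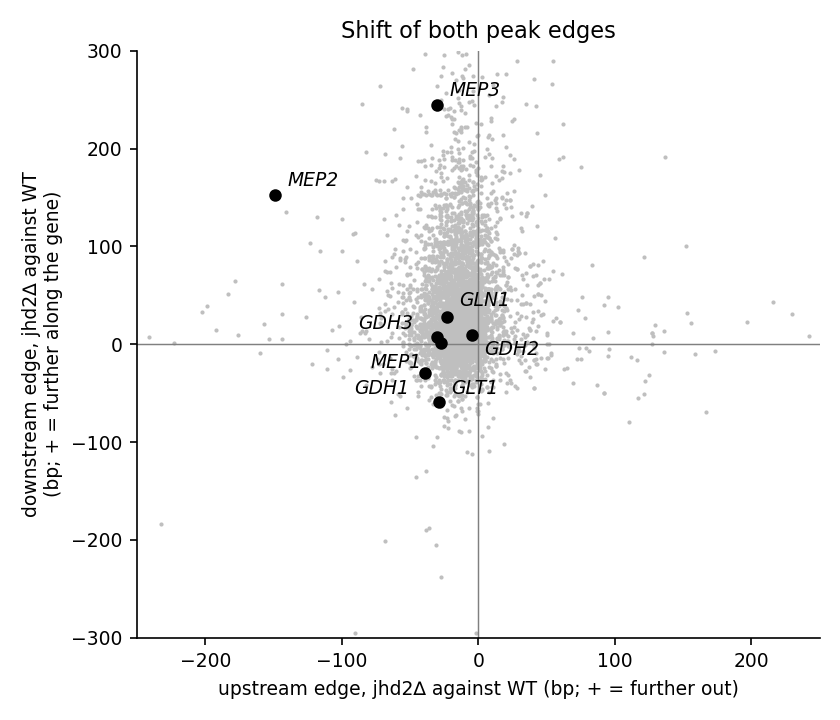
Shift of the upstream edge (x axis, bp, positive further out) and of the downstream edge (y axis, bp, positive further along the gene) from WT to *jhd2∆*, for the 8 ammonium genes in black and all oriented genes in grey, with the peak of highest pileup for each gene and 82 genes outside the plotted range. All 8 genes lie left of 0, *MEP2* far to the left at -149 bp, and *GDH1* and *GLT1* lie below 0 on the y axis.

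Pileup, the height of stacked reads at a peak as the authors' peak caller gives it, ordered the genes differently from breadth. It was compared only as a rank within a list. By the account of the study, total H3K4me3 signal was made equal between the genotypes and no spike-in was added. A shift of all genes together therefore cannot be seen. The paper proposes that this scaling bears on breadth, which was not tested here. The assimilation enzymes *GDH1* and *GLN1* led, with WT pileups of 340 and 326, above 95.4% and 85.8% of genes. The *GDH2* peak at the gene's start came next at 319 (76.9%). The remaining genes lay below the WT median of 301. *GLT1* had 294 (38.8%), *MEP2* 290 (33.8%), *GDH3* 277 (21.7%), *MEP1* 273 (18.5%) and *MEP3* 268 (15.6%). *MEP1*, *MEP2*, *GDH3* and *GLT1* thus combined WT breadths above the 75th percentile with heights below the median. How many of all genes do so was not computed, so this is not shown to be particular to them.

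In *jhd2∆* the genes stood higher in the list, and their order differed in 2 places, with *GLN1* above *GDH1* and *MEP2* above *GLT1*. *GLN1* had 318, above 97.1% of genes, and *GDH1* 316, above 96.6%. *GDH2* had 292 (79.0%), *MEP2* 279 (60.1%), *GLT1* 276 (55.3%), *GDH3* 269 (43.3%), *MEP1* 266 (38.2%) and *MEP3* 261 (31.5%). The *jhd2∆* list holds more genes, so ranks were also taken over the 4526 paired genes, a comparison chosen after the data were seen. On that scale all 8 genes ranked higher in *jhd2∆*, against 49.1% of all genes. The difference was largest at *MEP2*, with 33.4% of genes below it in WT and 59.0% in *jhd2∆*, and 93.9% of genes had a smaller one. It was 20.9 points at *GDH3*, 19.0 at *MEP1*, 15.6 at *GLT1*, 15.2 at *MEP3* and 11.2 at *GLN1*. At *GDH2* and *GDH1* it was 1.44 and 0.928 points, more than at 56.8% and 54.8% of genes. Heights lie close together, with quartiles of 281 and 317 in WT and 256 and 288 in *jhd2∆*. A few units of height can therefore move a gene by several points, and 1 library per genotype gives no spread. Genes low in WT ranked higher in *jhd2∆* more often in general, at 57.8% of the 2332 genes below the WT median by pileup and 40.0% of the 2194 others. Of the 8 ammonium genes 5 belong to the first of these classes. Among the genes compared below by function, those for other nitrogen sources ranked higher at 6 of 7, with 5 of 5 of those below the WT median. The count was 3 of 5 for GATA-factor regulators, 5 of 11 for enzymes of glutamate and α-ketoglutarate and 1 of 3 for transport partners.

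**Figure D4:**
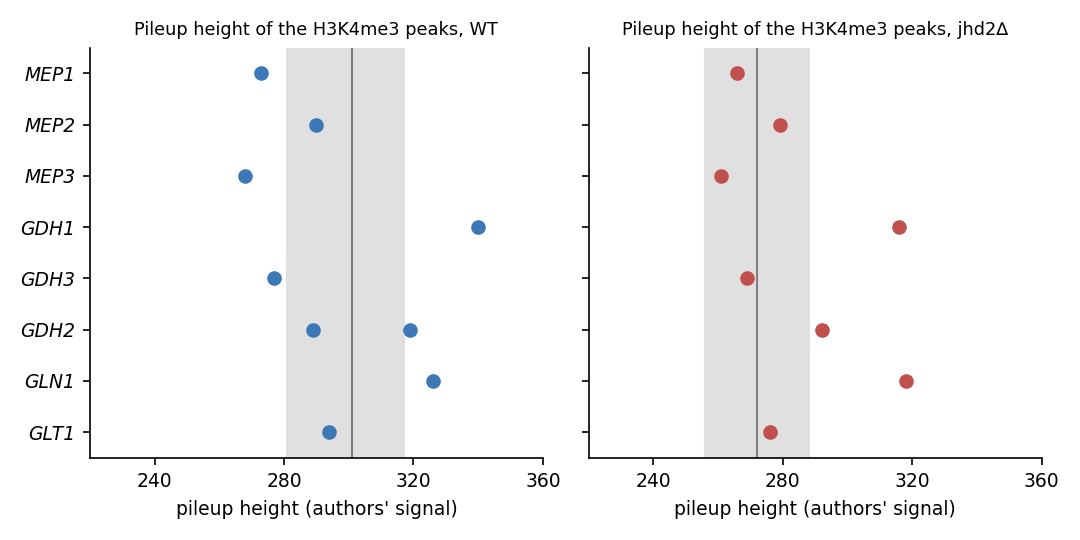
Pileup height (x axis, the authors' signal, axis not starting at 0) of every listed peak at the 8 ammonium genes, with WT on the left and *jhd2∆* on the right; grey bands span the quartiles of all genes of the list and the grey line is their median. *GDH1*, *GLN1* and the *GDH2* peak at the gene's start lie above the band in both lists. *MEP1*, *MEP3* and *GDH3* lie below it in WT and within it in *jhd2∆*.

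Genes that work beside ammonium uptake and assimilation were described for comparison from lists chosen by function. Of 5 partners of ammonium transport, all had a peak in *jhd2∆* and 3 had one in WT. Among all protein-coding genes, 21.5% had no peak in the *jhd2∆* list and 25.7% had none in the WT list. *NPR1* (YNL183C), for a kinase that keeps Mep2 active, had peaks of 1007 and 1099 bp in WT and *jhd2∆*. *PAR32* (YDL173W), for an inhibitor of Mep1 and Mep3, had 783 and 821 bp, and it is the nearest listed gene downstream of *GLT1*. *ATO2* (YNR002C), of the family of putative ammonia exporters, had 1209 and 1221 bp. The other members of that family, *ADY2* (YCR010C) and *ATO3* (YDR384C), were listed only in *jhd2∆*, with peaks of 451 and 334 bp whose pileups stood above 0.329% and 5.75% of genes. The 3 paired genes were all wider in *jhd2∆*, by a median of 38 bp, and none by more than 100 bp. Over all paired genes 63.2% were wider, and 14.2% by more than 100 bp.

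Of 13 enzymes that make or use glutamate or α-ketoglutarate, 11 had a peak in both lists, 7 wider and 4 narrower in *jhd2∆*. Over all paired genes 63.2% were wider and 35.9% narrower. The median difference was 19 bp over the 11, near the 17 bp over all genes. The largest increase was at *UGA1* (YGR019W), for γ-aminobutyrate transaminase, from 516 to 1273 bp, and the largest decrease at *IDP2* (YLR174W), for the cytosolic isocitrate dehydrogenase that makes α-ketoglutarate, from 783 to 665 bp. *GAD1* (YMR250W), for glutamate decarboxylase, had no peak in either list. Of 12 genes for the use of other nitrogen sources, 7 had a peak in both lists and 5 in neither, beside 20.4% of all protein-coding genes with none, a difference that was not tested. Among the 5 were the allantoin genes *DAL1*, *DAL4* and *DAL5* and the urea permease gene *DUR3*. The fifth was *UGA4*, named here after its absence was seen. The 7 listed genes had a median difference of 28 bp, from -17 bp at *ASP1* (YDR321W), for an asparaginase, to 108 bp at *DAL2* (YIR029W), for allantoicase. All 5 GATA-factor regulators of nitrogen genes had a peak in both lists, with a median difference of 53 bp. *GLN3* (YER040W), for an activator, differed by -53 bp, and *URE2* (YNL229C), for the protein that holds Gln3 in the cytoplasm, was wider by 107 bp. Of the 5 lists only the ammonium genes had a median difference below 0 (-24.5 bp, or -9.5 bp with the *GDH2* peak at its start), and with 3 to 11 paired genes in each of the other lists no list was tested against another.

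**Figure D5:**
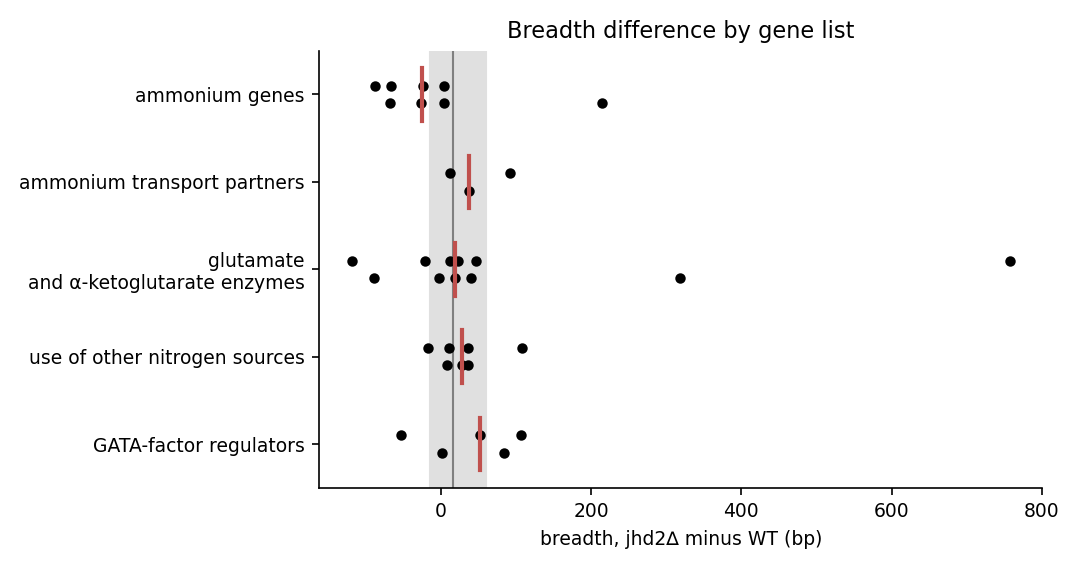
Difference in breadth, *jhd2∆* minus WT (x axis, bp), for the paired genes of each list, using the widest peak of a gene; red bars are the medians of each list, the grey band spans the quartiles of all genes (-14 to 60 bp) and the grey line is their median of 17 bp. The median of the ammonium genes, -24.5 bp, lies left of the band, but with the overlapping pair of *GDH2* peaks it is -9.5 bp and lies inside it, as do the medians of the other 4 lists.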

How the data were processed

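H3K4me3 ChIP-Seq libraries of WT and *jhd2∆* cells, 1 per genotype, were read as single-end reads of 51 bp. Per the labels and the methods of the study, the authors aligned reads with Bowtie2 2.2.3 at default settings to the iGenomes yeast reference, called peaks with MACS2 (broad option off), and assigned each peak to the gene whose 5′ coding part it overlapped. The genome build, the calling threshold and the control library are not given in the sources used here. The authors deposited for each peak its first and last base and its breadth in bp, beside its pileup height, a coverage signal. The study describes equalizing total H3K4me3 signal between genotypes without spike-in, and does not say at which step. No q-value or fold enrichment was used.

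Peaks were paired by gene, taking the widest peak of a gene. Edge shifts were oriented by strand. The code that computes them was checked on a list with known shifts, which says nothing of the measured shifts themselves. Percentiles are the percent of genes with a lower value. The limit for a wider or narrower peak was 100 bp. RefSeq's gene table (assembly R64) gave symbols for 4473 of 4628 WT names and 4725 of 4868 *jhd2∆* names, and no coordinate was taken from it. The genes, gene lists and alternatives were chosen with earlier results of these data known. All ammonium genes and transport partners were named. In the other lists the largest increase, the largest decrease and up to 4 genes that lacked a peak in at least 1 genotype were named. Values were computed with numpy 2.4.6, pandas 2.3.3 and scipy 1.17.1 under Python 3.11.15, and figures drawn with matplotlib 3.10.9.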

Additional observations from a re-analysis of the deposited data

How the results depend on the processing

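Most values did not depend on the choices tried, since 7 of the 8 genes have 1 peak in each list and leave no choice of peak. *GDH2* was the exception. Its difference of -66 bp with the widest peak became 5 bp with the peak of highest pileup and -664 bp with summed breadths. Its upstream shift of 714 bp outward became -5 bp with the highest peak or the outermost edges, and its downstream shift of -780 bp became 10 bp with the highest peak. The use of the highest peak for edge shifts was added after the data were seen. With it the median over the 8 genes was -9.5 bp for breadth and 8.5 bp for the downstream edge, in place of -24.5 and 4 bp. The number of genes narrower in *jhd2∆* was 0 at a limit of 100 bp (1.30% of all genes) and 3 at 50 bp (*GLT1*, *GDH1* and *GDH2* by its widest peak). The *GDH2* peaks paired in this way did not overlap, and its overlapping pair differed by 5 bp. Over all genes the share at 50 bp was not computed, and 5.17% had a difference below the -53 bp of *GLN3*. When the 20% of peaks lowest in pileup were left out, *MEP1* and *MEP3* left the WT list and 6 genes remained there, with 8 in *jhd2∆*. *MEP3*, the only ammonium gene wider by more than 100 bp, thus rests on a WT peak of low pileup. The median difference of the remaining ammonium genes was not computed. The same limit left 4 of 7 genes for other nitrogen sources and 3 of 5 GATA-factor regulators, with median differences of 37 and 2 bp in place of 28 and 53 bp, and gave 15.5 bp in place of 19 bp for the enzymes of glutamate and α-ketoglutarate. No paired analysis was possible because there is a single H3K4me3 library per genotype and nothing was tested. A planned search for motifs in promoters was not run, since no promoter sequences were used here.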

Other observations

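Some genes beside the ammonium genes also differed between the lists. *AAH1* (YNL141W), for adenine deaminase, lies downstream of *MEP2* and was listed only in *jhd2∆*, with a peak from 359639 to 360156 on chromosome XIV (518 bp). Its pileup of 194 was below the 25th percentile of that list, 256. In WT 1 peak number between the listed peaks of *MEP2* and *SRV2*, the next listed gene downstream, is carried by no listed peak. Whether that call lay at *AAH1* cannot be told from the lists. *BDH2* (YAL061W), for a putative dehydrogenase, follows *GDH3* on chromosome I. Its upstream edge, which faces *GDH3*, lay 199 bp further in without Jhd2, and its peak went from 1202 to 1042 bp. The gap between the *GDH3* and *BDH2* peaks was 597 bp in WT and 789 bp in *jhd2∆*. *UGA3* (YDL170W), which encodes a regulator of γ-aminobutyrate genes and lies next to the start of *GLT1*, was 52 bp wider in *jhd2∆*, while *GLT1* was 88 bp narrower (-88 bp). *LOA1*, beside *MEP3*, was wider by 52 bp, and *VMA13*, beside *GLN1*, by 12 bp. The differences at *UGA3*, *LOA1* and *VMA13* lay within the quartiles of all genes, -14 to 60 bp. These genes were chosen for their position and after their values were seen.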
